A study of Mus musculus with 6 samples.

Results

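The genes described here encode the gate at the base of the primary cilium, the basal body that anchors it, and regulators of its membrane. They are 33 genes of the transition zone, the distal and subdistal appendages, the centriolar satellites and the ciliary membrane, taken by symbol from a table of 32061 mouse genes, and all 33 were found and passed the filter on low counts. Their RNA was measured in 6 samples of cultured biliary epithelium, the lining of the bile ducts, from mouse. In 3 samples, labelled as depleted of primary cilia, the cells had received 4OHT, a common abbreviation of 4-hydroxytamoxifen, which activates Cre recombinase fused to a mutated estrogen receptor. In the other 3 samples, labelled as competent for primary cilia, the cells had not received it. All 6 came from bile ducts picked by hand from liver, grown as organoids in gel and then plated flat on collagen. The labels name no allele, Cre driver, strain, sex or age, and whether replicates are separate animals or cultures is not stated. P-values therefore measure no more than the spread of these samples, some or all of which may be technical. Treatment with 4OHT and cilium depletion coincided in every sample and cannot be told apart.

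Most bile duct cells carry a primary cilium, a sensory antenna that extends into the lumen and responds to flow and bile composition. Its base is a mother centriole, the basal body, which docks at the plasma membrane through distal appendages. Just above it lies the transition zone, a ring of protein links between microtubules and membrane that controls which proteins enter the cilium. Mutations in many of these genes cause nephronophthisis, Joubert syndrome or Meckel syndrome, in which malformed bile ducts and liver fibrosis can occur. For the account below each gene was placed in 1 of 6 sub-compartments by the best known place of its product. These are the MKS module of the transition zone (13 genes), the NPHP module with CEP290 and RPGR (5), the inversin compartment (2), the appendages (6), the basal body and satellites (5) and the ciliary membrane (2).

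Total counts ranged over 26293486 to 36998935 among depleted samples, and 32199606 to 36093068 among competent ones. Levels are given as CPM, counts relative to the scaled library total. A limit of 3 counts was 0.0797 to 0.119 CPM, for counting error only, and the lowest count of any member was 102. Wdr35, the gene known to be targeted in this study although the labels do not name it, had 739, 914 and 925 counts in depleted samples and 1211, 1148 and 1200 in competent samples (log2 change -0.25, adjusted p = 0.00245). Since the counts cover whole genes, loss of a single exon would not show in them and the labels remain unchecked. The summed level of 7 biliary markers lay between 4267 and 4519 CPM in the depleted group and between 5950 and 6040 CPM in the competent group, most of it from Krt7 and Spp1. Krt19, a keratin widely used to define bile duct cells, was low, at 7.61 to 9.77 CPM in depleted samples and 11.5 to 13.7 CPM in competent samples. Summed markers of other liver cells were low in both groups. They came to 13.6 to 14.8 CPM in depleted and 16.3 to 23.0 CPM in competent samples for hepatocytes, and 5.24 to 6.18 CPM in depleted and 3.32 to 3.85 CPM in competent samples for immune cells. Most of the hepatocyte sum came from Ttr. Nearly all of the immune sum came from Cd68, with means of 5.41 CPM in depleted and 3.42 CPM in competent cells. Mesenchymal markers summed to 2.72 to 3.49 CPM in depleted and 1.27 to 1.56 CPM in competent samples, nearly all from Col1a1. Endothelial markers stayed at 0.374 CPM or below in every sample, and Cyp3a11 and Col3a1 had no count in any. Of 4 genes of motile cilia, Foxj1 and Ccdc39 rose, Rsph1 fell and Dnah5 was too low to test. The sum of the 4 came to 302.9 to 320.7 CPM in depleted and 181.9 to 205.5 CPM in competent samples, nearly all from Foxj1. The part of these differences in the results below was not tested.

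Most of the 33 genes were higher in the depleted cells, while 5 of the 6 genes with the shortest transcripts, all of the MKS module, were lower. At an adjusted p below 0.05 in edgeR's quasi-likelihood test, 23 members rose, 6 fell and 4 did not pass. Adjusted p-values come from this test, over all 13839 genes tested, except where another tool, a left-out sample or another setting is named, and log2 changes are depleted over competent. Of all genes tested 69.2% passed, 34.9% higher and 34.3% lower, against 87.9% of members, 69.7% higher and 18.2% lower. The median log2 change of the members was 0.46, beside -0.01 over all genes tested. Of the 29 members that passed, 15 changed by less than 1.5-fold, as did 5640 of the 9576 genes that passed among all genes tested. A change of more than 2-fold was seen for 4 members (Tmem216, Anks6, Alms1 and Cspp1), a share of 12.1% where all genes gave 9.86%. Depleted and competent samples had separate ranges for 29 members, 23 higher and 6 lower, where 72.5% of all genes tested had no overlap, 36.4% higher and 36.1% lower. In bulk RNA, fewer cells that use a gene and less RNA per cell cannot be told apart.

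**Figure D1:**
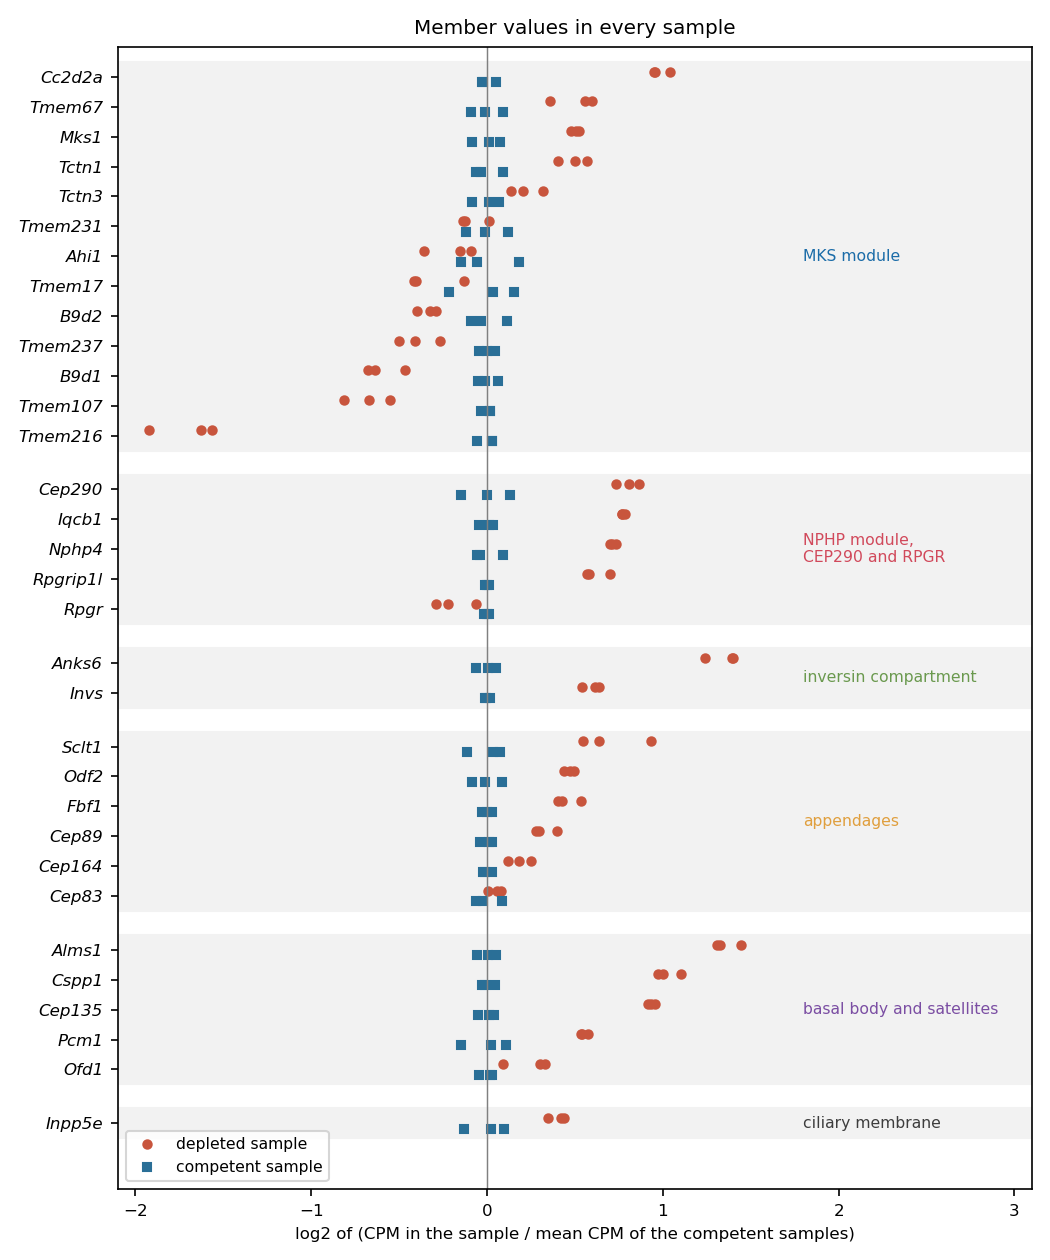
CPM of all but 1 of the 33 genes in each sample, as log2 of the ratio to the mean of the 3 competent samples (0 on the x axis). Circles are the 3 depleted samples and squares the 3 competent samples, and shaded blocks are the 6 sub-compartments. The depleted samples lie to the right of the competent ones for 22 genes, to the left for 6, and mix with them for 4 (Tmem231, Ahi1, Tmem17 and Cep83).

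The MKS module was split. Its 13 genes encode scaffold, B9-domain and membrane proteins of the transition zone. Among them 5 rose and 5 fell (38.5% each), while 3 did not pass. Of all genes tested 34.9% rose and 34.3% fell, so both shares of the module were close to those of all genes. The median log2 change was -0.20, or -0.11 without competent replicate 3. Tmem216, which encodes a small membrane protein of the transition zone (ENSMUSG00000024667; GRCm38 chromosome 19, 10533865 to 10556238, minus strand), had 5.11, 3.99 and 4.90 CPM in depleted samples, against 15.4, 15.4 and 14.6 CPM in competent samples. All depleted samples were thus far below all competent samples, and Tmem216 was 3.25-fold lower (log2 change -1.70, SE 0.10, adjusted p = 5.61e-09), the largest fall among the 33 genes. Raw counts behind these values were 129, 128 and 173 in depleted samples and 525, 545 and 548 in competent samples. A further membrane protein gene, Tmem107, had 5.11, 6.11 and 5.64 CPM in depleted samples and 8.75, 9.05 and 9.08 CPM in competent samples, and was 1.59-fold lower (log2 change -0.67, SE 0.10, adjusted p = 4.04e-05). Its groups did not overlap.

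Both B9 partner genes fell. B9d1, whose product forms a complex with B9D2 and MKS1, had 11.2, 11.5 and 13.0 CPM in depleted samples and 18.7, 17.8 and 17.3 CPM in competent samples (log2 change -0.59, SE 0.08, adjusted p = 1.21e-05). B9d2 had 10.3, 11.1 and 10.9 CPM in depleted samples and 13.3, 12.8 and 14.8 CPM in competent samples (log2 change -0.34, SE 0.08, adjusted p = 0.00224). Every depleted sample was below every competent sample for both genes. Mks1, the third member of that complex, went the other way, with 4.95, 4.80 and 4.90 CPM in depleted samples and 3.46, 3.62 and 3.24 CPM in competent samples (log2 change 0.50, SE 0.12, adjusted p = 0.00176). All 3 depleted samples were above the competent ones. Tmem237 was the fifth gene to fall, at 15.9 ± 1.3 CPM in depleted cells and 20.8 ± 0.644 CPM in competent cells (SD, n = 3 each; log2 change -0.38, adjusted p = 2.73e-04).

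Cc2d2a, which encodes a large coiled-coil scaffold that the membrane proteins of the module depend on (ENSMUSG00000039765; chromosome 5, 43662346 to 43740972, plus strand), led the rises of the module. It had 27.7, 26.2 and 26.0 CPM in depleted samples, against 13.2, 13.3 and 13.9 CPM in competent samples. Its level was thus nearly doubled in every depleted sample, a rise of 1.97-fold (log2 change 0.98, SE 0.06, adjusted p = 1.09e-08). Tmem67, which encodes the receptor-like membrane protein meckelin, had 10.6, 12.2 and 12.5 CPM in depleted samples and 8.19, 8.80 and 7.75 CPM in competent samples (log2 change 0.51, SE 0.09, adjusted p = 2.30e-04). The ranges of the groups were again separate. Of the tectonic genes, Tctn1 rose (log2 change 0.49, adjusted p = 5.36e-06) and Tctn3 rose slightly (log2 change 0.22, adjusted p = 0.0203). The Tctn3 call was lost with DESeq2 (adjusted p = 0.0571), with upper-quartile scaling (adjusted p = 0.0684) and when competent replicate 3 or depleted replicate 1 was omitted (adjusted p = 0.103 and 0.0792). Of the exon length of Tctn1, 25.5% overlaps the antisense genes Gm15481 and Hvcn1, and whether counting used strand is not given in the sources used here.

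Ahi1, which encodes jouberin, had 8.08, 8.42 and 6.99 CPM in depleted samples and 8.63, 8.09 and 10.2 CPM in competent samples. Those ranges overlap, and Ahi1 did not pass (log2 change -0.20, SE 0.11, adjusted p = 0.124), although it passed without competent replicate 2 (log2 change -0.28, adjusted p = 0.0449). Tmem17 (log2 change -0.30, adjusted p = 0.0569) passed without competent replicate 2 or depleted replicate 2 and with upper-quartile scaling or no filter, at adjusted p of 0.0163, 0.0309, 0.0293 and 0.0331. Tmem231 had a log2 change of -0.08 (adjusted p = 0.344).

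Many ciliary genes carry an X-box, the binding element of RFX transcription factors, near their start. RefSeq promoter windows of GRCm38.p6, from 250 bases before to 50 after an annotated start, were found for 29 of the 33 genes (41 windows). An X-box was searched on both strands as the arm GTTNCC, any 2 bases and the arm GGNAAC, or with 1 base between the arms. The longer form was present for 3 genes, Mks1, Tctn1 and Ahi1, in 7.32% of the windows of members and in 0.451% of all 32851 windows. The shorter form was present for Tctn3, in 2.44% of the windows of members and in 0.271% of all windows. All 4 genes belong to the MKS module, and their matches are shown here. Mks1, Tctn1 and Tctn3 rose and Ahi1 did not pass, where 69.7% of all 33 members and 38.5% of the MKS module rose. A link between match and change was not tested. Each line gives 30 bases, 5′ to 3′ on the strand of the gene, with the match in capitals.
Mks1 (chr11:87853183-87853212, plus strand): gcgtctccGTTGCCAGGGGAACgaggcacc
Tctn1 (chr5:122264411-122264440, minus strand): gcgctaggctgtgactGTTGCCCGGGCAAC
Ahi1 (chr10:20952560-20952589, plus strand): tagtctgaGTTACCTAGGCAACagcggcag
Tctn3 (chr19:40612350-40612379, minus strand): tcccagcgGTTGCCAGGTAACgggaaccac
The match lies before the start in Mks1 and Tctn3, and after it in Tctn1 and Ahi1. A single arm, GTTGCC, was found for 11 of the 29 genes (26.8% of their windows) and in 12.5% of all windows. Of those 11 genes, 6 rose (among them Mks1, Tctn1, Tctn3, Nphp4 and Cep164), 3 fell (B9d1, B9d2 and Tmem237) and 2 did not pass (Tmem231 and Ahi1). Beside these counts, 69.7% of all 33 members rose and 18.2% fell, and 34.9% of all genes tested rose and 34.3% fell. A match is a description of these letters and not a test of binding.

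The NPHP module rose with 1 exception. Of the 5 genes, 4 rose and 1 fell, with a median log2 change of 0.71. Cep290, whose very long coiled-coil product links the microtubules of the transition zone to the membrane (ENSMUSG00000019971; chromosome 10, 100487558 to 100574840, plus strand), had 60.0, 65.8 and 63.1 CPM in depleted samples, against 32.6, 36.0 and 39.5 CPM in competent samples. The groups were well separated, and Cep290 rose 1.75-fold (log2 change 0.80, SE 0.07, adjusted p = 1.41e-07). Iqcb1, which encodes a nephrocystin that binds CEP290, moved by nearly the same amount. It had 38.9, 38.3 and 38.3 CPM in depleted samples and 21.8, 23.0 and 22.7 CPM in competent samples, a rise of 1.71-fold (log2 change 0.77, SE 0.05, adjusted p = 1.63e-08).

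Genes of the linked scaffold proteins NPHP4 and RPGRIP1L also rose. Nphp4 had 10.9, 11.1 and 10.8 CPM in depleted samples and 6.52, 6.42 and 7.12 CPM in competent samples (log2 change 0.71, SE 0.09, adjusted p = 6.93e-06). Rpgrip1l had 31.2, 34.2 and 31.5 CPM in depleted samples and 20.8, 21.2 and 21.0 CPM in competent samples (log2 change 0.62, SE 0.06, adjusted p = 3.93e-07). Neither gene had overlapping groups. Rpgr, which encodes a regulator at the connecting cilium of photoreceptors, was the exception, with 14.2, 15.9 and 13.6 CPM in depleted samples and 16.4, 16.8 and 16.6 CPM in competent samples (log2 change -0.19, SE 0.07, adjusted p = 0.0357). The call of Rpgr was fragile: it was lost with DESeq2 (adjusted p = 0.0905) and when any single sample other than depleted replicate 2 was left out (log2 changes -0.20 to -0.14, adjusted p 0.0507 to 0.143).

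In the inversin compartment, a stretch of the cilium just above the transition zone, both genes rose. Anks6, whose product activates the kinase NEK8 there (ENSMUSG00000066191; chromosome 4, 47015669 to 47057427, minus strand), had 45.4, 45.1 and 40.6 CPM in depleted samples, against 17.8, 16.4 and 17.3 CPM in competent samples. It thus rose 2.54-fold with no overlap between the groups (log2 change 1.35, SE 0.06, adjusted p = 5.15e-10). Invs, which encodes inversin, the protein that anchors the compartment, had 71.7, 70.7 and 67.1 CPM in depleted samples and 46.8, 45.9 and 45.7 CPM in competent samples. Its groups did not overlap either, and it rose 1.51-fold (log2 change 0.60, SE 0.05, adjusted p = 7.26e-08).

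Appendage genes rose, by smaller amounts. Of 6 genes, 5 rose and 1 did not pass. Their median log2 change was 0.39. Sclt1, which encodes a distal appendage protein, had 7.25, 5.55 and 5.89 CPM in depleted samples and 3.99, 3.51 and 3.88 CPM in competent samples (log2 change 0.71, SE 0.13, adjusted p = 2.68e-04). All 3 depleted samples were above all competent samples, with the highest of them, replicate 1, apart from the other two. Cep83, whose product forms the base of the distal appendages, had 35.3, 37.2 and 36.6 CPM in depleted samples and 33.7, 37.3 and 34.6 CPM in competent samples. The groups overlapped and Cep83 did not pass (log2 change 0.05, SE 0.05, adjusted p = 0.445).

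Cep164, which encodes the distal appendage protein that recruits the kinase TTBK2 to start cilium assembly, had 64.2, 61.1 and 58.7 CPM in depleted samples and 55.0, 53.1 and 53.6 CPM in competent samples (log2 change 0.18, SE 0.05, adjusted p = 0.00361). This was the smallest of the appendage rises, though the groups did not overlap. Fbf1, whose product sits at the distal appendages and gates membrane proteins, rose more (log2 change 0.46, adjusted p = 1.22e-06), as did Cep89 (log2 change 0.32, adjusted p = 9.27e-05). Odf2, which encodes a protein of the subdistal appendages, averaged 91.6 ± 1.94 CPM in depleted cells and 66.2 ± 3.89 CPM in competent cells (SD, n = 3 each; log2 change 0.47, adjusted p = 1.53e-06).

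All 5 genes of the basal body and its satellites rose, with a median log2 change of 0.93. Alms1, whose product lies at the base of the cilium and is lost in Alström syndrome (ENSMUSG00000063810; chromosome 6, 85587531 to 85702753, plus strand), had 20.7, 22.5 and 20.4 CPM in depleted samples, against 7.93, 8.54 and 8.28 CPM in competent samples. With a rise of 2.57-fold it changed most among the 23 genes that rose (log2 change 1.36, SE 0.07, adjusted p = 2.76e-09). Cspp1, which encodes a microtubule-binding protein of the spindle pole and cilium, had 54.3, 58.1 and 53.3 CPM in depleted samples and 27.9, 26.9 and 26.5 CPM in competent samples, a rise of 2.04-fold (log2 change 1.03, SE 0.05, adjusted p = 1.39e-09). For both genes the lowest depleted sample was far above the highest competent sample.

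Cep135, needed for the assembly of centrioles, had 20.5, 20.4 and 20.9 CPM in depleted samples and 10.4, 10.8 and 11.1 CPM in competent samples (log2 change 0.93, SE 0.07, adjusted p = 3.29e-08). Pcm1, which encodes the scaffold of centriolar satellites, had the highest mean CPM of the members in depleted cells, with 98.7, 101.03 and 98.1 CPM, against 61.4, 69.0 and 73.2 CPM in competent samples (log2 change 0.55, SE 0.06, adjusted p = 1.50e-06). Neither gene had overlapping groups. Ofd1, whose product caps the distal centriole and also sits in satellites, rose least of the 5, with 27.8, 32.8 and 32.1 CPM in depleted samples and 26.6, 26.3 and 25.2 CPM in competent samples (log2 change 0.25, SE 0.07, adjusted p = 0.00390).

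Of the ciliary membrane genes, Inpp5e, which encodes a phosphoinositide phosphatase of the cilium, had 45.8, 45.4 and 43.1 CPM in depleted samples and 34.4, 36.2 and 30.9 CPM in competent samples (log2 change 0.40, SE 0.06, adjusted p = 4.95e-05). All depleted samples were above all competent samples. Of its exon length, 20.3% overlaps Pmpca on the opposite strand.

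**Figure D2:**
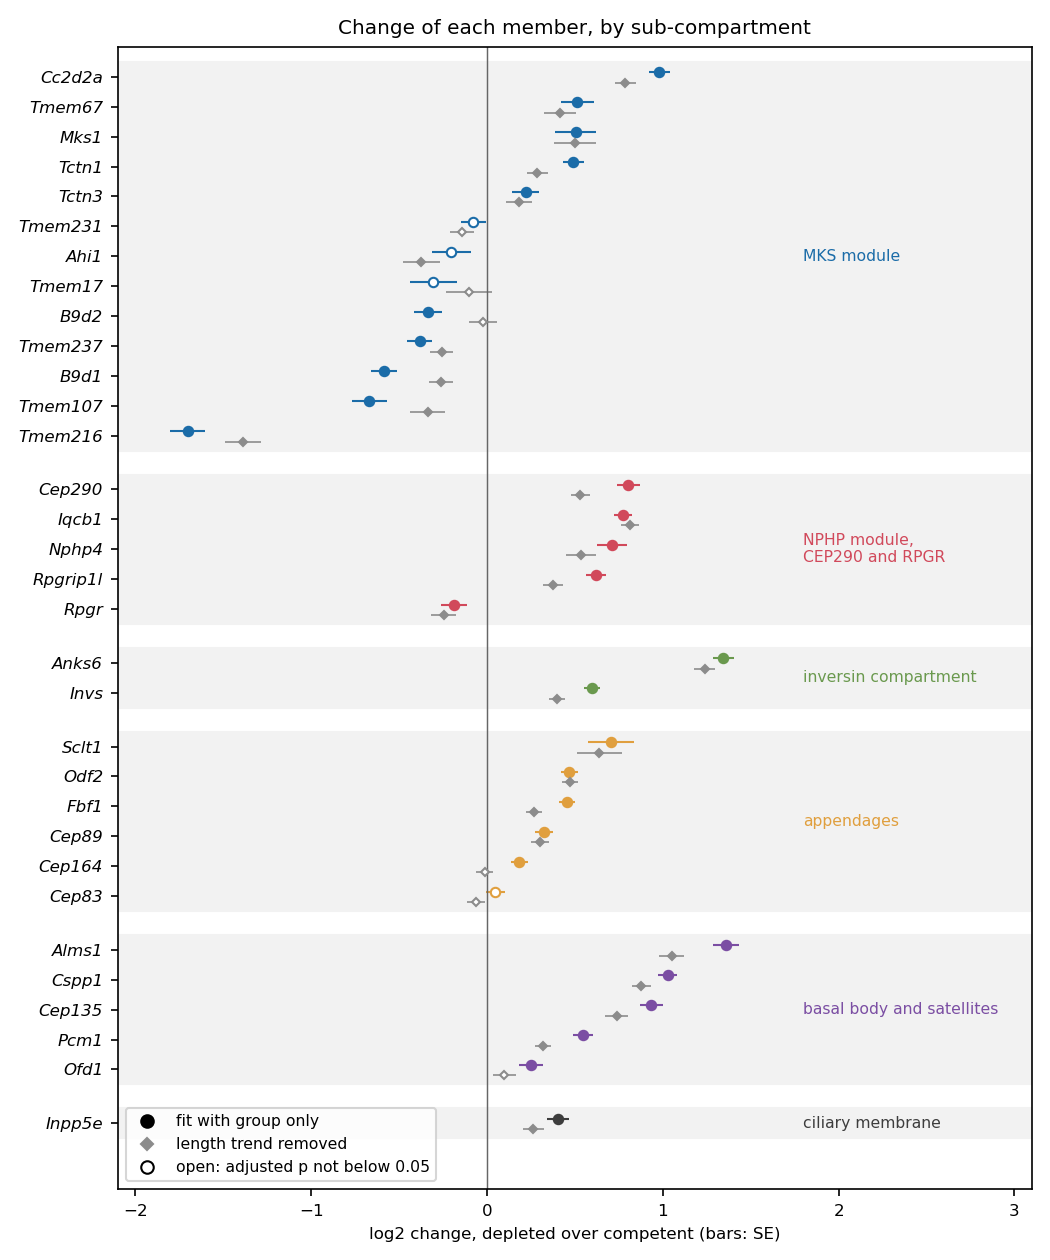
Log2 change of all but 1 of the genes, depleted over competent, with its SE (n = 3 samples each), by sub-compartment. Coloured circles are the fit without a length term and grey diamonds the fit with the trend with transcript length removed; open symbols did not pass an adjusted p of 0.05. Coloured symbols run between -1.70 (Tmem216) and 1.36 (Alms1), and the grey diamonds of long genes such as Cep290 and of short genes such as B9d1 lie closer to 0.

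Summed per length over its genes, the MKS module was the only sub-compartment of the 6 with a lower level in depleted cells, a direction that depended on the division by length. Its sum was 81.0, 82.5 and 85.0 CPM per kb of transcript in depleted samples and 108, 103 and 105 CPM per kb in competent samples. Without Tmem216 the sum lay between 75.5 and 79.8 CPM per kb in the depleted and 86.6 and 91.4 CPM per kb in the competent group, so the groups still did not overlap. Summed as CPM without that division, an alternative chosen after seeing the data, the module had 192.8 ± 0.663 CPM in depleted and 189.7 ± 5.82 CPM in competent cells (SD, n = 3 each), with overlapping groups. Without Tmem216 that sum was higher in depleted cells, at 188.2 ± 0.221 CPM, against 174.6 ± 5.75 CPM in competent cells. Per length, the sums of the other sub-compartments were higher in every depleted than in every competent sample. The NPHP module summed to 36.5 ± 0.884 CPM per kb in depleted cells and 24.4 ± 0.750 CPM per kb in competent cells (SD, n = 3 each). For basal body and satellites the sum was 40.5 ± 1.3 CPM per kb in depleted cells and 25.1 ± 0.682 CPM per kb in competent cells. The inversin compartment summed to 24.7 ± 1.18 CPM per kb in depleted and 13.0 ± 0.268 CPM per kb in competent cells. Appendage genes summed to 93.7 ± 1.5 CPM per kb in depleted and 72.9 ± 1.92 CPM per kb in competent cells. The difference between sub-compartments was not tested.

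**Figure D3:**
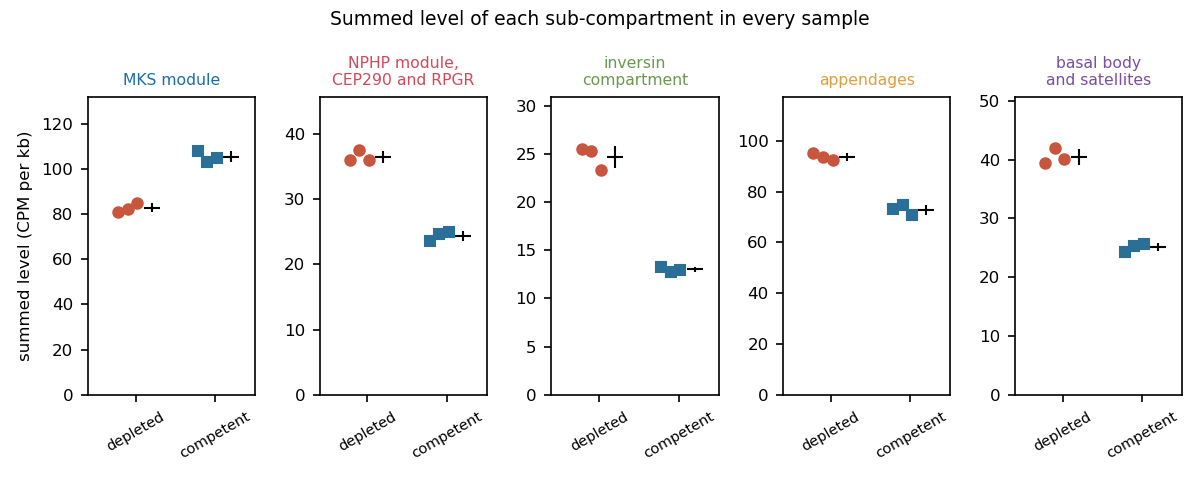
Summed level of the genes of 5 sub-compartments in CPM per kb of main transcript, 1 panel each, on axes that start at 0. Circles are the 3 depleted samples, squares the 3 competent samples, and the black marks give the mean and SD. On this scale the MKS module is lower in depleted samples and the other 4 are higher.

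The order of the genes by level per length changed most for Tmem216, followed by Anks6 and Tmem107. The length is that of the main transcript, and the places depend on that choice. For Odf2 it is 2450 nt, where all annotated exons merged come to 9919 nt, and for Tmem216 it is 927 nt, against 3281 nt. In competent cells Odf2 was highest at 27.0 ± 1.59 CPM per kb, followed by B9d1 at 22.0 ± 0.882 and Tmem216 at 16.3 ± 0.539 CPM per kb (SD, n = 3). Alms1 was lowest at 0.826 ± 0.0311 CPM per kb, next to Sclt1 at 1.26 ± 0.0842 CPM per kb. In depleted cells Odf2 was again first at 37.4 ± 0.790 CPM per kb, Ahi1 was last at 1.61 ± 0.153 CPM per kb, and Tmem216 stood at place 22 of 33 with 5.03 ± 0.642 CPM per kb, against place 3 in competent cells. Anks6 stood at place 9 in depleted and place 21 in competent cells, with 12.3 ± 0.759 CPM per kb in depleted and 4.83 ± 0.192 CPM per kb in competent cells. Tmem107 stood at place 19 in depleted and place 7 in competent cells. In depleted cells the next gene above Anks6, Invs at 12.4 ± 0.426 CPM per kb, lay within its spread, and the next below, Cep164, was at 11.1 ± 0.501 CPM per kb. In competent cells, Cep164 and Cep83 (9.73 ± 0.181 and 9.68 ± 0.517 CPM per kb) did not differ beyond their spread.

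**Figure D4:**
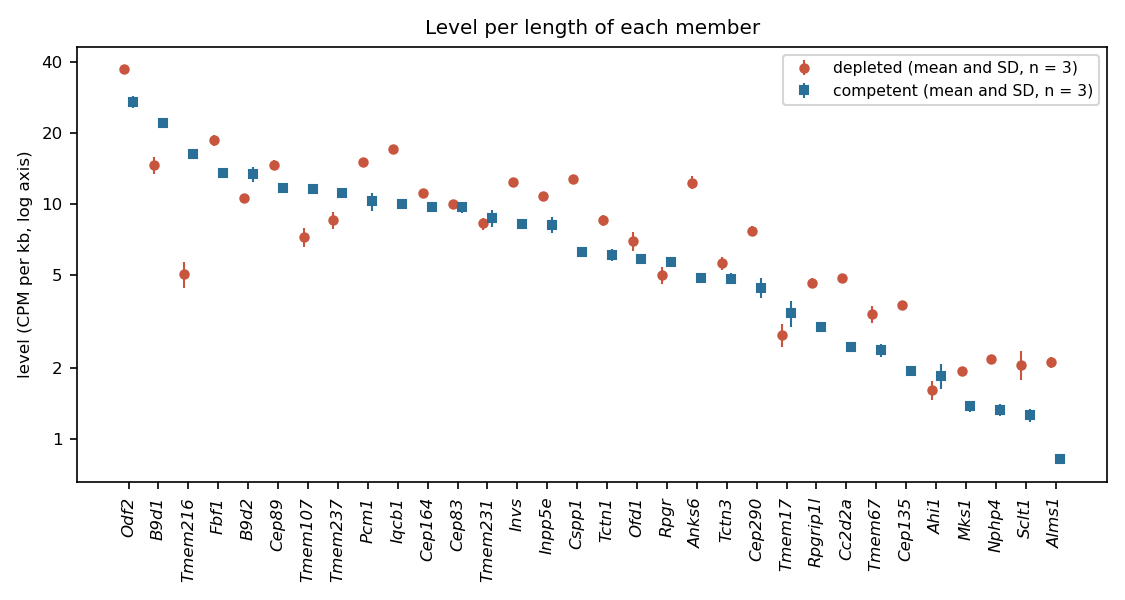
Level per length of all but 1 of the genes, in CPM per kb of main transcript on a log axis, ordered by the competent mean. Circles are the mean and SD of 3 depleted samples and squares those of 3 competent samples. The circle of Tmem216 lies near 5 CPM per kb while its square is among the highest, and Anks6 and Alms1 have circles well above their squares.

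Change was related to transcript length. Across the 33 genes, which are not independent and share the same 6 libraries, Spearman's rho between the length of the main transcript and the log2 change was 0.642. Across 13831 genes with a length it was 0.323. With the competent mean as baseline, rho across members was 0.646, 0.675 and 0.608 in the 3 depleted samples, and across all genes it was 0.338, 0.325 and 0.285. The length of the protein gave a rho of 0.723 across members and 0.423 across all genes with a protein length. The number of exons gave 0.657 across members and 0.209 across all genes, whereas GC content gave -0.19 and 0.0089. Within the MKS module rho was 0.835 (13 genes, and 0.811 without Tmem216), and across the 20 other genes it was 0.325.

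The 6 shortest transcripts, all of the MKS module and 779 to 1869 nt long, belong to Tmem107, B9d1, Tmem216, B9d2, Tmem17 and Tmem237. Of these, 5 fell and Tmem17 did not pass. Their median log2 change was -0.48, beside -0.31 over 3199 protein-coding genes with transcripts of 204 to 1945 nt, of which 56.1% fell and 14.7% rose. At the other end, 12 members had transcripts of 4542 nt or more, and 11 of them rose and Ahi1 did not pass. Their median log2 change was 0.61, beside 0.23 over 3197 protein-coding genes of that length, of which 51.4% rose and 20.6% fell. Between these, 8 members of 1946 to 3032 nt had a median of 0.40, where 3198 genes of that length had a median of -0.0036. For 7 members of 3033 to 4541 nt the median was 0.40, beside 0.11 over 3199 genes.

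**Figure D5:**
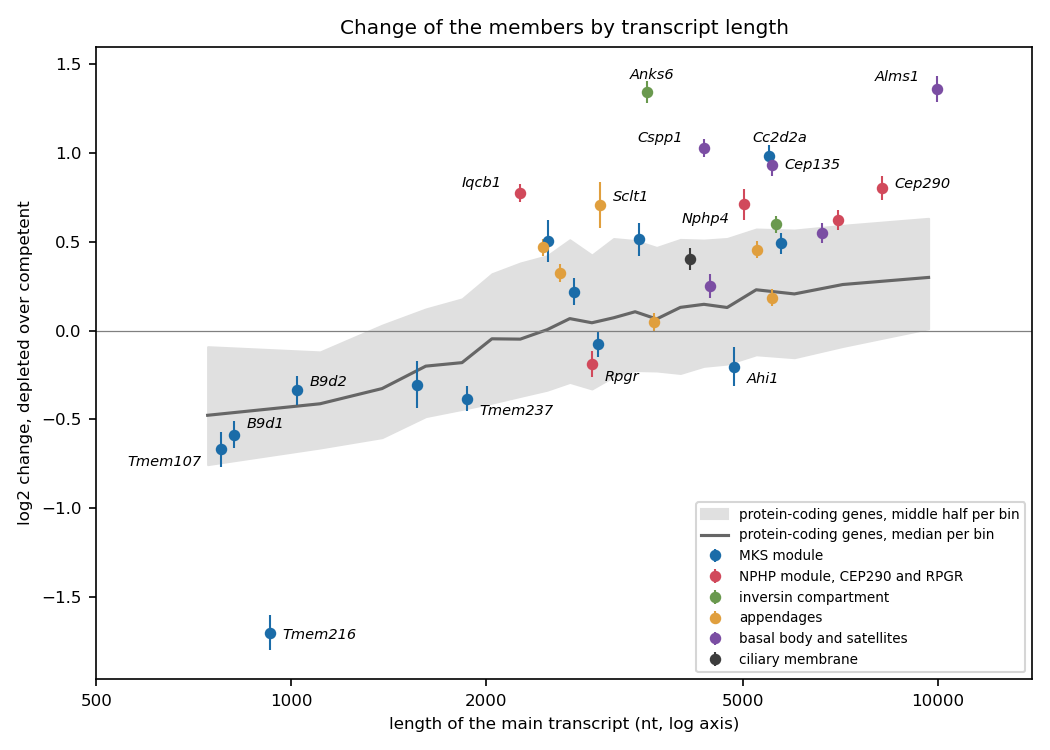
Log2 change of all but 1 of the genes, depleted over competent (bars are SE), against the length of its main transcript on a log axis, coloured by sub-compartment. The grey line and band are the median and the middle range (25th to 75th percentile) of protein-coding genes in 20 bins of equal size. Tmem216 lies far below the band, Anks6, Alms1, Cspp1 and Iqcb1 are among those above it, and B9d1, B9d2 and Tmem107 lie inside it.

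The trend over all genes was taken out as a smooth curve per library, after which 20 members rose, 6 fell and 7 did not pass, where 34.0% of all genes rose and 35.0% fell. The median log2 change of the members was then 0.29, and rho with transcript length 0.467, beside -0.01 across all genes. Protein length still gave a rho of 0.591 across members and 0.217 across all genes, so a trend related to length remained in this fit. Passing in the same direction with and without the trend was seen for 25 of 33 members, and for 58.2% of all genes. Tmem216 kept most of its fall (log2 change -1.39, adjusted p = 8.01e-09). Anks6 (log2 change 1.24), Alms1 (1.05), Cspp1 (0.88), Iqcb1 (0.81), Cc2d2a (0.79) and Cep135 (0.74) remained clearly higher, and Iqcb1, with a transcript of 2257 nt, hardly moved.

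Other members depended on the trend. The falls of the B9 genes shrank: B9d1 had a log2 change of -0.26 (adjusted p = 0.00360) and B9d2 no longer passed (log2 change -0.02, adjusted p = 0.813). Tmem107 had a log2 change of -0.34 (adjusted p = 0.00728). Rises were lost, or turned in sign, for Cep164 (log2 change -0.01, adjusted p = 0.821) and Ofd1 (log2 change 0.10, adjusted p = 0.204), among others. Ahi1, which has a transcript of 4851 nt, passed as lower (log2 change -0.37, adjusted p = 0.00611).

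A further 33 genes of the same compartments were read as a comparison, all of them tested. Of these, 16 rose (48.5%), 11 fell (33.3%) and 6 did not pass, where 34.9% of all genes tested rose and 34.3% fell. The share that fell was thus close to that of all genes. The median log2 change of the 33 comparison genes was 0.14, beside -0.01 over all genes tested. Cep131, which encodes a satellite protein, rose 2.55-fold, with 34.7, 31.7 and 34.4 CPM in depleted samples and 14.2, 12.1 and 13.3 CPM in competent samples (adjusted p = 1.68e-09). Ccdc120 and Cntrl, of the subdistal appendages, rose 2.17-fold and 1.85-fold (adjusted p = 1.17e-10 and 1.46e-08), and Cep162, which encodes a protein that helps to assemble the transition zone, rose 1.99-fold (adjusted p = 4.63e-09). Against these, Nin, which encodes the subdistal appendage protein ninein, was 1.99-fold lower, with 15.8, 15.4 and 16.7 CPM in depleted samples and 28.7, 31.7 and 34.9 CPM in competent samples (adjusted p = 6.73e-08). Nin has a transcript of 9919 nt, and its log2 change was -0.995, or -1.30 with the length trend removed. Nek8, the kinase of the inversin compartment, did not pass (log2 change 0.03, adjusted p = 0.651). Cby1 and Fam92a, whose products act together at the base of the cilium, both fell (log2 changes -0.62 and -0.29, adjusted p = 1.75e-05 and 3.58e-04). Once the trend was taken out, Cby1 passed at a log2 change of -0.32 (adjusted p = 0.00352) and Fam92a did not pass (log2 change -0.10, adjusted p = 0.0970). These 3 genes were named after their values were seen.

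Among the other falls, Arl3, the GTPase that releases lipidated cargo in the cilium, was 1.61-fold lower, with 34.4, 35.2 and 37.1 CPM in depleted samples and 58.5, 55.4 and 57.9 CPM in competent samples (adjusted p = 4.31e-08). Arl2bp, whose product binds ARL3, was 1.70-fold lower (adjusted p = 8.17e-09), and the cargo carrier genes Unc119b (log2 change -0.34) and Pde6d (log2 change -0.35) were lower as well (adjusted p = 5.86e-06 and 0.00107). PDE6D carries INPP5E, whose own gene rose. Without the length trend Pde6d did not pass (log2 change -0.05, adjusted p = 0.546), while Arl3, Arl2bp and Unc119b did (log2 changes -0.36, -0.69 and -0.45). Unc119b and Pde6d were named after their values were seen.

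Tmem138, which lies next to Tmem216 on the same strand and encodes another small membrane protein of the transition zone, fell too. It had 16.6, 16.2 and 16.8 CPM in depleted samples and 26.7, 25.4 and 28.7 CPM in competent samples, 1.63-fold lower (adjusted p = 3.45e-07). Its log2 change was -0.70, or -0.51 once the trend with length was taken out. The groups were far apart, but 39.5% of its exon length overlaps genes on the opposite strand.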

How the data were processed

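The authors deposited unnormalized read counts in 1 table of 32061 genes by 6 samples, and 11507 of the genes had no count. WT columns were matched to the cilia-competent and KO columns to the cilia-depleted samples by replicate number, and 0 columns belonged to other samples. The upstream software, per the submitters' processing notes, included STAR 2.7.1a, featureCounts, cutadapt 1.16, DESeq2 1.34.0, FastQC 0.11.9 and MultiQC 1.3, on GRCm38; per the labels' protocols, poly-A RNA and a directional kit were used. The annotation and strand setting are not given in the sources used here.

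Gene models came from GENCODE M21 (GRCm38), which held 32009 of the genes; the main transcript was the APPRIS principal one, or else the longest. The test was that of edgeR 4.0.16, run in R 4.3.3 (filterByExpr, TMM, quasi-likelihood F-test for the group, no other term, two-sided, Benjamini-Hochberg over all genes tested, threshold 0.05). An SE is the log2 change divided by the root of F. The trend with length was removed as offsets, a loess curve (span 0.5) per library over all genes. Replicates of a group differed beyond sampling noise (chi-square per degree of freedom 5.33 to 9.44), so each counted once. The edgeR code was tested on simulated counts.

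Alternatives were other scalings, DESeq2 1.42.0, limma-voom (limma 3.58.1), other filters, a replicate block, leaving out each sample, and other length measures. The members, lists and rules were chosen with earlier results of these data known. Values in every sample were given for members passing with a log2 change of at least 0.5 either way, the extremes of each sub-compartment and those whose call depended on the length trend; of the 33 comparison genes, the 4 largest rises and falls were named. Values of 1 member and some comparison genes are not reported here, though they count in the totals. Fam92a was read under that older symbol.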

Additional observations from a re-analysis of the deposited data

How the results depend on the processing

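No pairing of the samples by replicate number is stated, and none was seen. Same-numbered samples had correlations of -0.03, 0.01 and -0.02 between their deviations, none over 0.1. Such values cannot exclude a pairing with little shared effect. With the replicate number as a block 9526 genes passed, against 9576 without it, and 23 members rose and 6 fell as before; rho with length was 0.642. Under 13 alternatives without the length correction, 29 of 33 members stayed on the same side of the threshold, the exceptions being Tmem17, Tctn3, Ahi1 and Rpgr. Cep83, which did not pass, changed sign under upper-quartile scaling (-0.0023), and no other member did. An adjusted p below 0.01 gave 8317 genes, 22 members higher and 5 lower.

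Upper-quartile scaling, under which the median over all genes was -0.06, gave a median log2 change of 0.40 for the members, 0.66 for the NPHP module, 0.34 for appendages, 0.88 for the basal body and 0.24 for the membrane genes. With the length trend removed these medians were 0.29, 0.53, 0.29, 0.74 and 0.17, with -0.10 for the MKS module, 0.82 for the inversin compartment and a rho of 0.467; with the replicate block added they were 0.29, 0.53, 0.29, 0.74, 0.17, -0.10 and 0.82, with a rho of 0.466. Cep164 turned to -0.01 in both (-0.0128 and -0.0118). The log2 ratio of the summed MKS level was -0.35 per length and 0.0234 without division by length, an alternative chosen after seeing the data. Protein length gave a rho of 0.723. Leaving out 1 sample gave medians of 0.42 to 0.47 for the members, -0.28 to -0.11 for the MKS module, 0.67 to 0.75 for the NPHP module, 0.91 to 0.95 for the basal body, 0.35 to 0.40 for appendages, 0.95 to 1.01 for the inversin compartment and 0.26 to 0.31 for the membrane genes, a rho of 0.618 to 0.655, 22 to 23 members higher and 5 to 7 lower. The MKS median of -0.11 came without competent replicate 3. The causes of these shifts were not tested.

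Gene counts do not resolve isoforms, and 3 samples a group limit the precision. The trend with length was shared by all 3 depleted samples, so it and the group cannot be told apart.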

Other observations

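Several of these genes share a start region with a gene on the other strand. Of the 33, 6 have a protein-coding gene that starts within 1000 nt upstream in the opposite direction, or 18.2%, beside 10.2% of all genes tested. This was looked up after the values of the members were seen. In 5 of the pairs both genes were tested, and the member rose in each, where 69.7% of all 33 members and 34.9% of all genes tested rose. These 5 members all have transcripts over 2000 nt, and 23 of the 27 members over that length rose. Whether the shared start bears on the change was not tested. Cep290 rose (log2 change 0.80) while Tmtc3, an endoplasmic reticulum O-mannosyltransferase gene whose start lies 208 nt away, fell, with 37.5 ± 1.52 CPM in depleted cells and 54.2 ± 3.76 CPM in competent cells (SD, n = 3 each; log2 change -0.53, adjusted p = 2.37e-06). Rpgrip1l rose (0.62) while Fto, an RNA demethylase gene, fell slightly (-0.20, adjusted p = 0.00124), and Invs rose (0.60) while Erp44, an endoplasmic reticulum chaperone gene, fell slightly (-0.14, adjusted p = 0.0159). The neighbours of Cep89 and Sclt1, Faap24 and D3Ertd751e, did not pass (log2 changes -0.03 and -0.10, adjusted p = 0.887 and 0.567). Entpd1, the neighbour of Tctn3, was near 0 in all samples.

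The 207 bases between the annotated starts of Tmtc3 and Cep290, from which these genes were read in opposite directions with opposite changes, are given here in the direction of Cep290, from RefSeq GRCm38.p6, with the CCAAT box in capitals. The letters CCAAT, on either strand, were found in 37.4% of all promoter windows and in 61% of the windows of members, for 20 of 29 members with a window.
chr10:100487351-100487557, plus strand: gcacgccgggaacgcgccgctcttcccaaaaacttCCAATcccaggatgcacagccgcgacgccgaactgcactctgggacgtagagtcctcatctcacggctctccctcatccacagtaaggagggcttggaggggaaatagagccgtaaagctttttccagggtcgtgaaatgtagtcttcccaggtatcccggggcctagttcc

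At the Tmem216 locus the genes next to it by start position moved in different directions. Cpsf7, a polyadenylation factor gene on the opposite strand, rose 1.57-fold, with 146 ± 6.66 CPM in depleted cells and 92.5 ± 1.13 CPM in competent cells (SD, n = 3 each; adjusted p = 2.10e-08). The span of Cpsf7, from 10525266 to 10547653, runs into that of Tmem216. Of the exon length of Tmem216, 5.15% overlaps exons of Cpsf7.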
